A study of Mus musculus with 69 samples.

Results

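Primary vascular smooth muscle cells of wild-type mice (WT VSMC) that were already under metabolic stress were compared with WT VSMC that received hormones in addition. The members were the libraries labelled ALL and HG+FFS with genotype WT in sets 1 to 4. These were 8 of the 69 libraries of the series, 4 per condition, paired by set. The metabolic stress (HG + FFA) was 20 mM glucose with 100 µM free fatty acids for 24 h, as the labels give it, whereas the study's methods give that concentration for oleate and for palmitate each. ALL contained the same and, in addition, 30 nM angiotensin II and 300 nM of a catecholamine, which the sample labels call epinephrine and the study's methods call norepinephrine. The cells came from the aorta of male C57BL/6 mice, each set from 1 animal at 1 passage with all of its incubations run together, in serum-free medium with fatty-acid-free albumin in every condition. Control (neither stress) and AII + NA (the same hormones at normal glucose) of the same sets are given beside the results, as are VSMC without Egfr (KO VSMC, SM22-driven Cre with a floxed Egfr gene) and wild-type heart endothelial cells (EC). Some EC sets came from animals that also gave VSMC, with sets 9 and 10 sharing the animals of WT VSMC sets 1 and 2, and sets 15 and 16 those of KO VSMC sets 7 and 6. The 8 libraries held between 23626664 and 36480881 counts.

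Angiotensin II acts through the AT1 receptor, which in mice is encoded by Agtr1a and Agtr1b and raises intracellular calcium, and through the AT2 receptor, encoded by Agtr2, which is often described as opposing AT1. Catecholamines act on smooth muscle through alpha-1 receptors, which contract it, and beta receptors, which relax it. Both hormones can act on the actin cytoskeleton and on serum response factor (SRF), a transcription factor that binds the CArG box and drives many genes of the contractile apparatus.

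The cells expressed smooth muscle markers. Acta2 (smooth muscle actin) was at 210 to 1254 FPM in the 8 libraries, where FPM is the count per 1000000 counts of the normalized library. Myh11, smooth muscle myosin, lay at a mean of 6.97 FPM under HG + FFA and 8.05 FPM under ALL. Tagln, for which 66.7% of the exon bases are shared with other genes, lay at 2.51 and 5.12 FPM. Fibroblast markers, many of which cultured smooth muscle cells also express, summed to 3550 to 7130 FPM under HG + FFA and 2860 to 5700 FPM under ALL. The 8 smooth muscle markers summed to less, with 353 to 883 FPM under HG + FFA and 1080 to 1510 FPM under ALL. Levels differed between sets. In set 3, Eln (elastin) was at 11.6 FPM under HG + FFA, against 178 to 295 FPM in the other sets, and Agtr2, H19 and Col15a1 were also lowest there. As these are bulk libraries, a lower level can mean fewer cells of a kind or less RNA per cell, and these cannot be told apart.

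Few genes were called as changed when hormones were added. A DEG was a gene with an FDR under 0.05 in both edgeR and DESeq2, a |log2FC| of at least 0.64 and a mean of at least 3 FPM in either condition. Of 16905 genes tested, 5 were DEG (0.0296%), of which Agtr1b, Bmp3, Dmpk and Atp10a were higher under ALL (0.0237%) and Agtr2 was lower (0.00592%). By edgeR alone 7 genes had an FDR under 0.05 (0.0414%), and by DESeq2 alone 224 did (1.33%). The 2 further edgeR genes were Map3k10, a kinase upstream of JNK (log2FC 0.53 ± 0.06, SE, FDR = 0.00726), and Fam111a, a protease of DNA replication (-0.51 ± 0.08, SE, FDR = 0.0395), both with changes under the threshold. The list of DEG depended on every set. Without set 1, 3 of the 5 DEG kept an edgeR FDR under 0.05, and without set 2, set 3 or set 4 none did. All kept their direction, but they had been chosen on the same sets. An unadjusted edgeR p under 0.05 was found for 1829 genes (10.8%), so few calls do not show that few genes changed.

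A wider group was described, but not called as changed. It held the genes with an unadjusted edgeR p under 0.01, a |log2FC| of at least 0.64, at least 3 FPM and the same direction in 4 of 4 sets. There were 89 such candidates with higher values under ALL (0.526%) and 19 with lower values (0.112%), DEG included. Of all genes tested, 7.83% were higher and 8.57% lower in 4 of 4 sets. The ranges of both conditions overlapped for 67 of the 89 and for all 19, and the sets started from different levels. No share over all genes tested is given for such overlap, and candidates were chosen on the same values, so these counts are a description only.

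**Figure D1:**
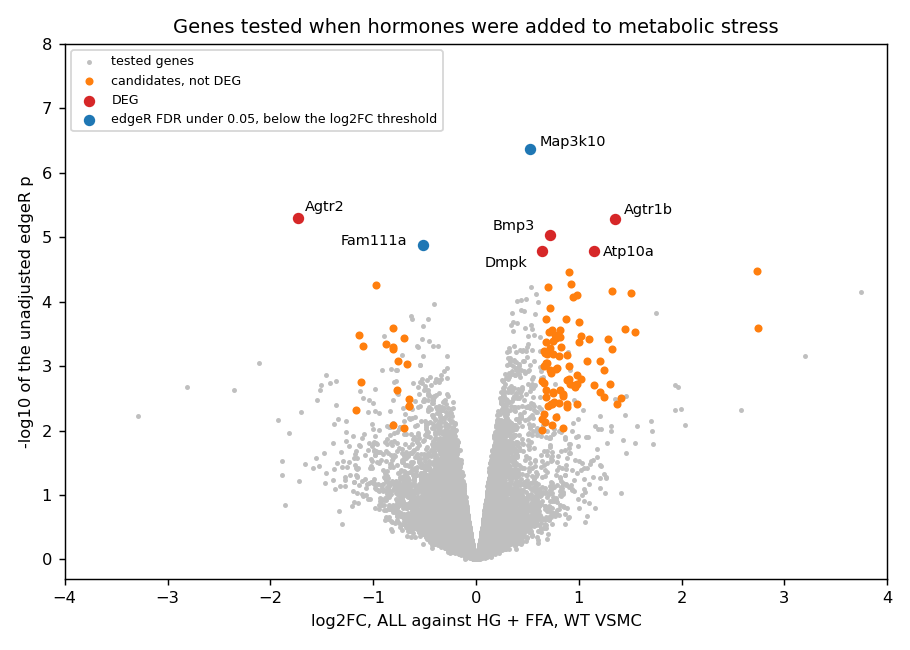
Each point is 1 of 16905 genes, with the log2FC of ALL against HG + FFA on the x axis and the -log10 of the unadjusted edgeR p on the y axis. The 5 DEG are red, the other candidates orange, and Map3k10 and Fam111a, with an FDR under 0.05 but a smaller log2FC, blue. More candidates lie on the right (89) than on the left (19).

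The receptors of angiotensin II were among the genes with the clearest change. Agtr1b (chromosome 3, 20368609 to 20421348, minus strand, GRCm39) was at 1.53, 4.41, 2.53 and 3.65 FPM under HG + FFA in sets 1 to 4, and at 3.20, 11.2, 4.49 and 14.9 FPM under ALL. It rose in each set, with a log2FC of 1.35 ± 0.20 (SE, n = 4 sets, edgeR FDR = 0.0297). The ranges overlapped through set 1, whose value under ALL lay below those of sets 2 and 4 under HG + FFA. Agtr2 (chromosome X, 21350763 to 21355403, plus strand) was at 1.82, 16.2, 0.188 and 23.1 FPM under HG + FFA and at 0.493, 3.48, 0.173 and 7.76 FPM under ALL. It fell, with a log2FC of -1.73 ± 0.26 (SE, edgeR FDR = 0.0297), and the fall was carried by sets 1, 2 and 4, since Agtr2 was close to absent in set 3 in both conditions.

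Agtr1a (chromosome 13, 30518942 to 30566850, plus strand), the main AT1 gene of mouse vessels, was at 7.83, 13.9, 6.35 and 17.8 FPM under HG + FFA and at 13, 22.5, 11 and 49.8 FPM under ALL. It was higher in 4 of 4 sets, with a log2FC of 0.95 ± 0.18 (SE), but its edgeR FDR of 0.0748 missed the threshold. Set 4 stood apart with a log2 ratio of 1.48, against 0.69 to 0.79 in the others. Agtr1a and Agtr1b are close paralogs and reads with several alignments were counted, so that the split between them is uncertain, whereas Agtr2 is a more distant gene. When each set was left out in turn, the log2FC lay between 1.09 and 1.52 for Agtr1b, between -1.88 and -1.47 for Agtr2 and between 0.74 and 1.05 for Agtr1a.

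Of the 13 angiotensin and adrenergic receptor genes listed, 9 passed the filter on low counts, and 5 had higher and 1 lower values under ALL at an unadjusted p under 0.05. Over all genes tested these shares were 5.73% and 5.09%, and they apply to each list of ALL against HG + FFA in WT VSMC below. Mas1, Adra1a, Adra2b and Adra2c were not tested. Beside the angiotensin receptors, the alpha-1 receptors had higher values in 4 of 4 sets. Adra1b had a log2FC of 0.55 ± 0.15 (SE, FDR = 0.157). Adra1d was at 35.5, 24.5, 27.5 and 15.6 FPM under HG + FFA and at 44.8, 33.2, 34.4 and 29.8 FPM under ALL, with a log2FC of 0.52 ± 0.19 (SE, FDR = 0.331). Adrb1, the main beta receptor of the heart, was 1 of the 5 with higher values (log2FC 0.996, edgeR FDR = 0.333). It was at only 0.226 to 1.45 FPM in the 8 libraries.

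**Figure D2:**
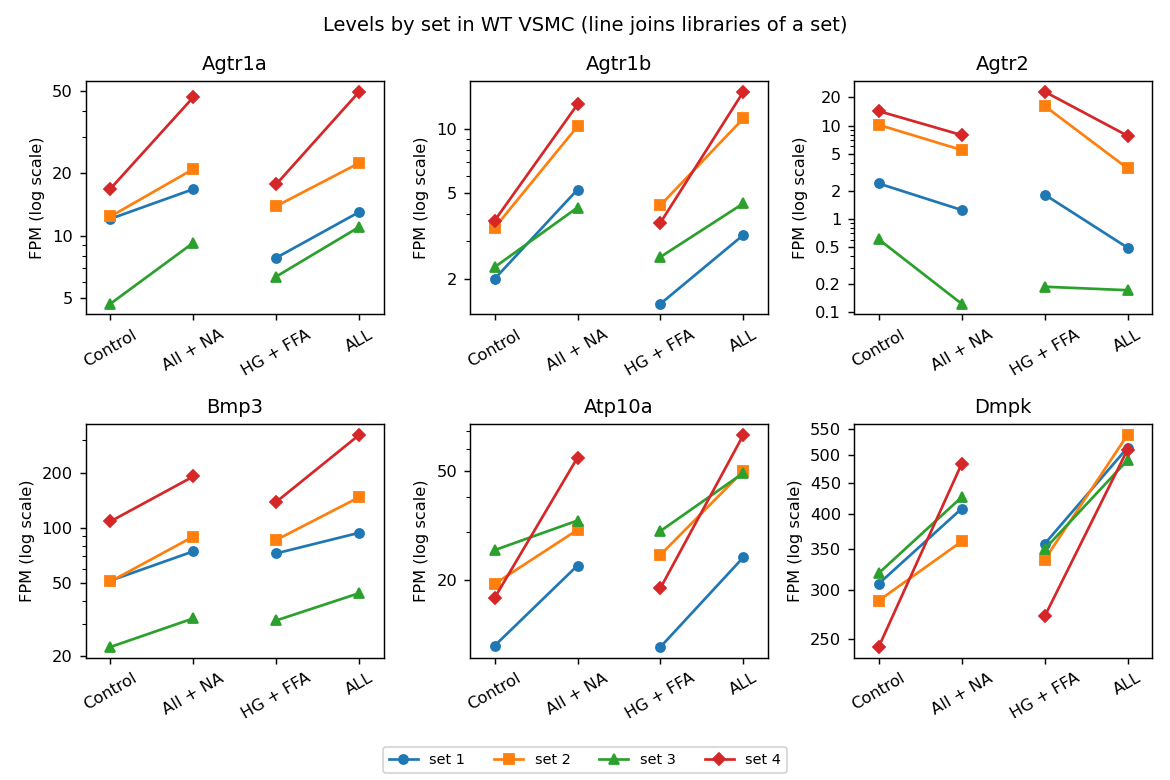
FPM on log axes of Agtr1a, Agtr1b, Agtr2, Bmp3, Atp10a and Dmpk in the 16 WT VSMC libraries. Lines join the libraries of a set from Control to AII + NA and from HG + FFA to ALL. Apart from Agtr2, all lines go up on both sides, and set 4 has the steepest line for Agtr1a, Agtr1b and Atp10a. The Agtr2 lines go down, with set 3 near 0.2 FPM under HG + FFA and ALL.

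The other DEG belong to different functions. Dmpk (chromosome 7, 18817406 to 18827746), a kinase of muscle cells whose gene is expanded in myotonic dystrophy, was at 357, 337, 350 and 272 FPM under HG + FFA and at 514, 539, 490 and 510 FPM under ALL. The groups did not overlap, and its log2FC was 0.65 ± 0.11 (SE, edgeR FDR = 0.0395), just above the fold threshold. Bmp3 (chromosome 5, 99002268 to 99032255), a member of the BMP family that antagonizes other BMPs in bone, was at 72.7, 86.1, 31.4 and 139 FPM under HG + FFA and at 94.1, 147, 44.2 and 321 FPM under ALL (log2FC 0.72 ± 0.11, SE, edgeR FDR = 0.0390). Atp10a (chromosome 7, 58305914 to 58479478), which moves phospholipids across the plasma membrane, was at 11.4, 24.7, 30.1 and 18.7 FPM and at 24.2, 49.9, 49.1 and 67.5 FPM (log2FC 1.15 ± 0.19, SE, edgeR FDR = 0.0395). Both rose in every set, with ranges that overlapped and starting levels that differed between sets.

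Genes of the contractile apparatus made up the most one-sided list. Of 23 genes listed, all tested, 17 were higher (73.9%) and 0 lower at an unadjusted p under 0.05, and the median log2FC was 0.55, against 0.00 over all genes tested. None was a DEG, and 3 had an edgeR FDR under 0.1, as 0.385% of all genes did. The count was 13 without set 4 and 16 to 17 without any other set. Acta2 was at 786, 308, 618 and 210 FPM under HG + FFA in sets 1 to 4 and at 1002, 960, 887 and 1254 FPM under ALL. The groups did not overlap, yet the gain ranged from small in set 1 to large in set 4, and the log2FC of 1.31 ± 0.35 (SE) had an FDR of 0.154. Itga8, an integrin subunit of smooth muscle, had a log2FC of 1.32 ± 0.25 (SE, FDR = 0.0744) and was at 17.9, 37.8, 25.4 and 31.7 FPM before and 41.0, 88.6, 36.6 and 165 FPM with hormones.

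Genes of myosin and actin regulation had values of similar size. Mylk, the myosin light chain kinase that starts contraction, had a log2FC of 0.87 ± 0.18 (SE, FDR = 0.091), Hspb7 of 1.10 ± 0.25 (SE) and the regulatory light chain Myl9 of 0.99 ± 0.25 (SE). For Tagln it was 1.08 ± 0.26 (SE), for the actin-binding Cnn1 0.96 ± 0.26 (SE), and for the crosslinker Flna 0.54 ± 0.13 (SE). Myh11 had a smaller value of 0.25 ± 0.20 (SE), with higher values in 3 of 4 sets. It was not the lowest, as the log2FC of the 23 contractile genes ranged from -0.20 to 1.71, with 21 above 0. Without a stated strand setting, reads from overlapping genes cannot be told apart, which concerns Tagln and Cnn1 (35.1% of exon bases shared) most, and among the genes named here also Edn1, Ednra, Ramp2, Ankrd1, Adra1d and Gm15675 (21.3% to 29.7%).

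**Figure D3:**
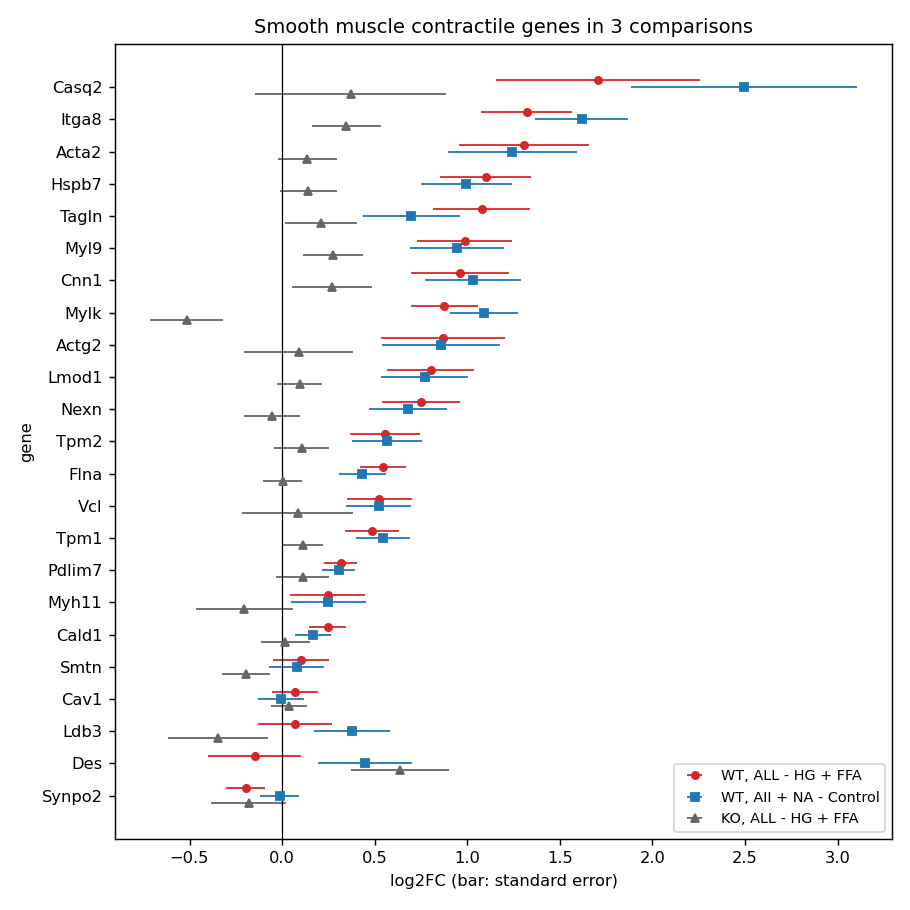
Log2FC with standard errors of the 23 contractile genes in 3 comparisons, sorted by ALL against HG + FFA in WT VSMC. WT values with and without metabolic stress lie close to each other for most genes. The KO VSMC values (3 sets with both libraries) lie on both sides of 0, with a median of 0.10 against 0.55 in WT VSMC. Their median log2 ratio was above 0 in each set, at 0.18, 0.01 and 0.25 in sets 6 to 8.

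Regulators and targets of SRF with its MRTF cofactors, and of the mechanosensitive YAP-TEAD factors, gave 13 of 20 genes higher (65%) and 1 lower at an unadjusted p under 0.05, with a median log2FC of 0.42. Without set 4 the count was 7. Cytoplasmic actin Actg1 was at 1552, 1048, 1291 and 1039 FPM under HG + FFA and 1678, 2238, 1733 and 2515 FPM under ALL, with no overlap (log2FC 0.75 ± 0.18, SE, FDR = 0.112). Srf itself had a log2FC of 0.39 ± 0.11 (SE, FDR = 0.168) and Ankrd1, a muscle ankyrin protein, of 1.41 ± 0.41 (SE, FDR = 0.182). Wwtr1, which encodes TAZ, was the gene with the lower value.

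The CArG box, the binding sequence of SRF, was searched in promoters that reach from 250 bases before to 50 bases after the start of a gene (RefSeq, GRCm38.p6, both strands). It was found in 7 of the 71 higher candidates with a promoter entry (9.86%), in 0 of the 11 lower candidates and in 1.62% of the 11316 tested genes with an entry. Of the contractile list, 3 of 19 held one. The cAMP response element TGACGTCA was in 5 of the 71 (7.04%, against 3.39% of tested genes) and the AP-1 site TGANTCA in 4 (5.63%, against 6.49%). Of the contractile list, 3 of 19 also held the AP-1 site (15.8%), as many as held a CArG box, and 0 the cAMP response element. None of the 4 DEG with an entry held any of these. These are descriptions of letters in a window, and no binding was measured. The stretches of the actin gene Actg1, the actin-binding Cnn2, the light chain Myl9, the sarcomere protein Myom1 and the adhesion protein Vcl are shown because these are cytoskeletal genes with higher values under ALL. Vcl is from the contractile list and was not a candidate. The other higher candidates with a CArG box, Dgkh, Lclat1 and Lmcd1, are not shown, nor is Ldb3 of the contractile list. Capitals mark the CArG box, and each line is read 5′ to 3′ on the strand of its gene.
Actg1, chr11:120348541-120348620, minus strand: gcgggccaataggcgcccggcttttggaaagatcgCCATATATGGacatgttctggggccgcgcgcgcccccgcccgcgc
Cnn2, chr10:79988509-79988588, plus strand: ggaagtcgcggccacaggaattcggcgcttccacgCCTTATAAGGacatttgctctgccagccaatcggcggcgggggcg
Myl9, chr2:156775268-156775347, plus strand: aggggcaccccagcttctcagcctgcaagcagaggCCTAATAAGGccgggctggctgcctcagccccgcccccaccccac
Myom1, chr17:71019423-71019502, plus strand: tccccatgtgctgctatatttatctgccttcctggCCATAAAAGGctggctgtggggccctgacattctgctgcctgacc
Vcl, chr14:20929148-20929215, plus strand: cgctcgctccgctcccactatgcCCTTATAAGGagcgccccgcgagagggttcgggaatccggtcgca

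The CArG box of Cnn2 and that of Vcl have the same 10 letters. The log2FC was 0.79 ± 0.20 (SE, FDR = 0.130) for Cnn2, 0.88 ± 0.23 (SE, FDR = 0.147) for Myom1 and 0.53 ± 0.18 (SE, FDR = 0.270) for Vcl, and each was higher in 4 of 4 sets, as were Actg1 and Myl9.

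Matrix genes split into both directions. Of 21 collagen genes, 0 were higher and 7 lower (33.3%) at an unadjusted p under 0.05, but the median log2FC of the list was only -0.06. The count was 4 without set 2 or set 4. The lower genes were Col5a3, Col15a1 and Col6a3, Col3a1 of fibrillar type III collagen, Col6a1, Col6a2 and Col14a1. Col15a1, a basement membrane collagen, was at 11.5, 143, 2.99 and 120 FPM under HG + FFA and at 8.63, 54.5, 2.94 and 55.9 FPM under ALL, so that the decrease was large in sets 2 and 4 and small in sets 1 and 3 (log2FC -0.87 ± 0.20, SE, FDR = 0.108). Col3a1 had a log2FC of -0.50 ± 0.15 (SE, FDR = 0.185). Of 11 small leucine-rich proteoglycans, 4 were lower (36.4%) and 0 higher, led by Ecm2 and by Aspn (asporin) with a log2FC of -1.12 ± 0.30 (SE, FDR = 0.149), and including Ogn and decorin (Dcn).

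Other matrix genes had higher values. Eln had a log2FC of 1.0 ± 0.21 (SE, FDR = 0.0946) and was higher in 4 of 4 sets, set 3 with its low level included. Tnc, a matricellular protein of remodelled vessels, was at 240, 244, 468 and 216 FPM under HG + FFA and at 409, 438, 653 and 681 FPM under ALL (log2FC 0.93 ± 0.17, SE, FDR = 0.0744). The laminin chain Lama5 had 0.98 ± 0.19 (SE, FDR = 0.0748). Of the 22 matricellular and elastic fibre genes, 4 were higher (18.2%, against 5.73% of all genes tested) and 5 lower (22.7%, against 5.09%). Without set 4 only 1 was lower.

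Ramp1, which turns the calcitonin receptor-like receptor into a CGRP receptor, was a candidate with a log2FC of 2.73 ± 0.48 (SE, FDR = 0.0656). It was at 0.883, 0.226, 0.377 and 0.335 FPM under HG + FFA and at 2.1, 3.18, 1.42 and 6.88 FPM under ALL, with no overlap. Among 17 vasoactive peptides and receptors, 5 were higher (29.4%) and 2 lower (11.8%; 1 without set 4). Endothelin-1 (Edn1) had a log2FC of 1.21 ± 0.34 (SE, FDR = 0.167), the vasopressin receptor Avpr1a of 0.96 ± 0.26 (SE) and the thrombin receptor F2r of 0.41 ± 0.11 (SE). The endothelin receptor Ednra had -0.36 ± 0.10 (SE, FDR = 0.167) and Ramp2, the partner for adrenomedullin, -0.51 ± 0.15 (SE). Edn1 and its receptor Ednra thus had opposite signs, each in 4 of 4 sets.

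Among the remaining higher candidates with the smallest p, Myh10, nonmuscle myosin IIB, was at 217, 336, 343 and 301 FPM and at 374, 547, 534 and 872 FPM, with no overlap (log2FC 0.91 ± 0.16, SE, FDR = 0.0656). Rasl11b, a small GTPase, had 1.5 ± 0.28 (SE, FDR = 0.0744), the acyltransferase Lclat1 0.70 ± 0.13 (SE) and Ankrd34a 0.72 ± 0.14 (SE). Among the lower ones, Bmper, which binds BMPs, had -0.97 ± 0.18 (SE, FDR = 0.0744), and the Wnt antagonist Sfrp4 had -0.81 ± 0.17 (SE, FDR = 0.0966), at 306, 260, 24.9 and 415 FPM under HG + FFA and 204, 123, 19.3 and 192 FPM under ALL. Negr1 (-0.81), Gm15675 (-0.81), Fmo4 (-0.75) and Smarca1 (-0.67) completed this group. None of these passed the FDR threshold.

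Growth factor signalling gave small counts, several of them above the shares over all genes tested (5.73% higher and 5.09% lower). Of 24 growth factors and receptors, 5 were higher (20.8%) and 2 lower, with Fgfr2 at a log2FC of 0.77 ± 0.17 (SE, FDR = 0.0989). Without set 4, 2 were higher. Among 14 ErbB receptors and ligands, 1 was higher (Nrg1, 0.43 ± 0.17, SE) and 3 lower (21.4%). Egfr, the receptor deleted in KO VSMC, had -0.23 ± 0.10 (SE, FDR = 0.438) and was higher in 1 of 4 sets. Without set 2 or set 4, 0 of the 3 remained at an unadjusted p under 0.05. Of 16 feedback genes of the ERK pathway, 1 was higher and 3 lower (18.8%). Without set 2, 0 were lower, and without set 2 or set 4, 0 were higher at an unadjusted edgeR p under 0.05. Of 17 immediate early genes, the transcription factors Egr1, Egr2 and Egr3 were lower (17.6%) and Srf and Klf6 higher (11.8%). Egr3 had -1.1 ± 0.25 (SE, FDR = 0.108), and the lower count varied between 1 and 7 without single sets. All libraries were taken at 24 h. Of 10 imprinted growth genes, 4 were lower (40%), a count that varied between 2 and 7 without single sets. Among them, H19 (-1.17 ± 0.36, SE, FDR = 0.210) was at 29.4, 156, 3.96 and 324 FPM under HG + FFA and 20.1, 41.5, 2.18 and 139 FPM under ALL.

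Cell cycle and metabolic lists gave small counts, with 17.4% of cholesterol genes and 15% of glycolysis genes higher against 5.73% of all genes tested. Of 21 S phase genes 1 was higher (5 without set 1, 0 without set 2 or set 4), and of 22 G2 and mitosis genes 1 was lower. Cdkn2b, an inhibitor of cyclin-dependent kinases, had a log2FC of 0.82 ± 0.18 (SE, FDR = 0.0989) without overlap of the groups. Of 14 genes of fatty acid synthesis none passed an unadjusted p of 0.05 in edgeR (2 were lower without set 1), and of 20 PPAR and fatty acid oxidation genes 1 was higher. Of 23 cholesterol genes 4 were higher, a count that varied between 1 (without set 4) and 9 (without set 3). For glycolysis it was 3 of 20 (1 without set 2 or set 4), for chemokines and cytokines 1 higher and 2 lower of 20 (4 lower without set 2, 1 without set 3 or set 4, and 0 higher without set 4), and for interferon-stimulated genes 0 higher and 1 lower of 18.

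**Figure D4:**
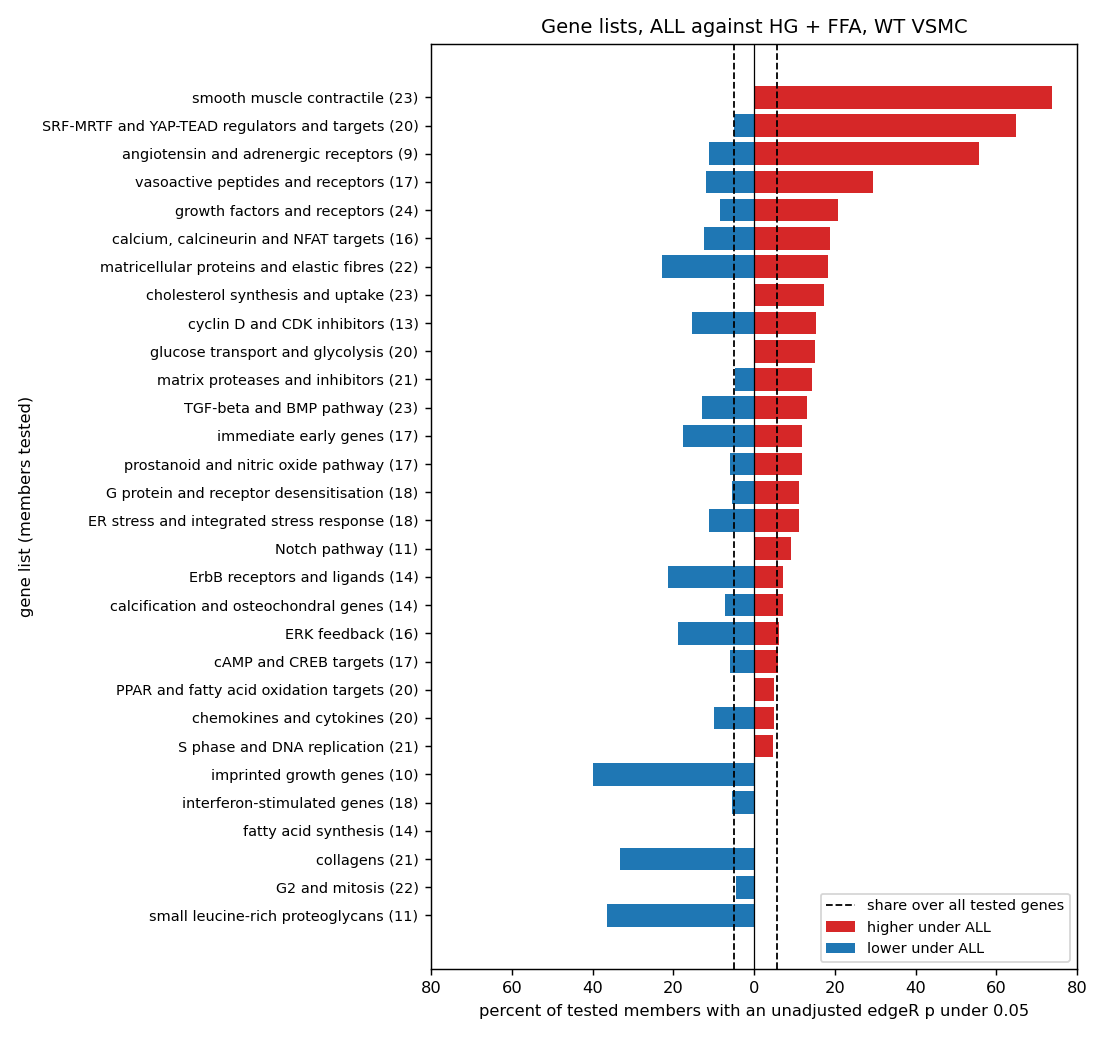
Percent of the tested members of 30 gene lists with an unadjusted edgeR p under 0.05, higher under ALL to the right and lower to the left, with the shares over all genes tested (5.73% and 5.09%) as broken lines. The contractile, SRF and receptor lists reach furthest to the right, and imprinted genes, proteoglycans and collagens furthest to the left.

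Markers of other cell types were followed in the same libraries. The 8 smooth muscle markers summed to 883, 472, 747 and 353 FPM under HG + FFA and to 1130, 1160, 1080 and 1510 FPM under ALL, with no overlap. Acta2 made up most of this sum, with means of 481 and 1030 FPM. At an unadjusted edgeR p under 0.05, 5 of the 8 were higher and 0 lower. For this and the other marker lists, the shares over all genes tested were 5.73% higher and 5.09% lower. Smtn had means of 58.5 FPM under HG + FFA and 60.7 FPM under ALL, Myh11 6.97 and 8.05 FPM, and Des 1.45 and 1.3 FPM. Of 10 endothelial markers, 1 was higher and 3 lower at an unadjusted p under 0.05 (1 lower without set 2), and their sum was 12.3, 69.3, 3.20 and 9.11 FPM under HG + FFA and 11.7, 36.5, 2.49 and 11.8 FPM under ALL. Set 2 had the highest sum in both conditions. The endothelial cadherin Cdh5 was at 0.853, 22.7, 0.0538 and 0.518 FPM and at 0.431, 9.74, 0.0346 and 0.265 FPM (log2FC -1.14 ± 0.25, SE, FDR = 0.0989). Of 9 fibroblast markers, 4 were lower and 0 higher, led by Clec3b (-0.53 ± 0.12, SE, FDR = 0.100), and 1 was lower without set 4. Dcn and Col14a1 are also on the matrix lists. Leukocyte markers summed to 35.0 to 179 FPM under HG + FFA and 34.3 to 156 FPM under ALL, and 0 of 9 passed an unadjusted p of 0.05 by edgeR in either direction. The part of these cells in the lower collagen and proteoglycan values was not tested.

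The same hormones had also been given at normal glucose. This comparison, AII + NA against Control, uses none of the 8 libraries, but it uses cells of the same 4 animals and shares the estimate of the spread. All 89 higher candidates were also higher with hormones alone, as were 46.7% of all genes tested, 86 of them at an unadjusted p under 0.05, where 4.97% of all genes tested were. All 19 lower candidates were also lower (53.3% of all genes), 12 of them at that level, against 4.44% of all genes. The median log2FC of the higher candidates was 0.83 under metabolic stress and 0.81 without it, and that of the lower candidates -0.81 and -0.54. For Agtr1b the values were 1.35 and 1.44 (FDR with hormones alone = 0.0229), for Agtr1a 0.95 and 0.91, and for Agtr2 -1.73 and -1.04. Across the 12040 genes with at least 3 FPM, both hormone effects had a Pearson correlation of 0.689 and a Spearman correlation of 0.627, and across all 16905 genes tested 0.383 and 0.422. These are correlations across genes, which are not independent, in cells that share animals.

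Whether hormones acted differently under metabolic stress was tested as a departure from additivity on the log2 scale. In edgeR and DESeq2, 0 genes had an FDR under 0.05, and 290 (1.72%) had an unadjusted edgeR p under 0.05. The smallest edgeR FDR was 1. For Agtr2 the departure was -0.70 ± 0.36 (SE, unadjusted edgeR p = 0.0734), for Agtr1b -0.09 and for Agtr1a 0.04. A p that misses the threshold does not show that the effects were equal.

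The size of the hormone effect varied between animals. The median log2 ratio of the higher candidates was 0.42, 0.98, 0.47 and 1.55 in sets 1 to 4 under metabolic stress and 0.51, 0.81, 0.42 and 1.53 with hormones alone. Set 4 had the largest ratio for 85 of the 89. For the lower candidates the medians were -0.47, -1.24, -0.28 and -1.07 under metabolic stress and -0.24, -0.49, -0.36 and -0.88 with hormones alone, so that set 2 was furthest from 0 in the former and set 4 in the latter. Under metabolic stress, set 4 was the most extreme for 4 of 19. Without set 4 there were 32 higher and 15 lower candidates. All 108 kept their direction, but the rule of the same direction in 4 of 4 sets left little room for a change.

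**Figure D5:**
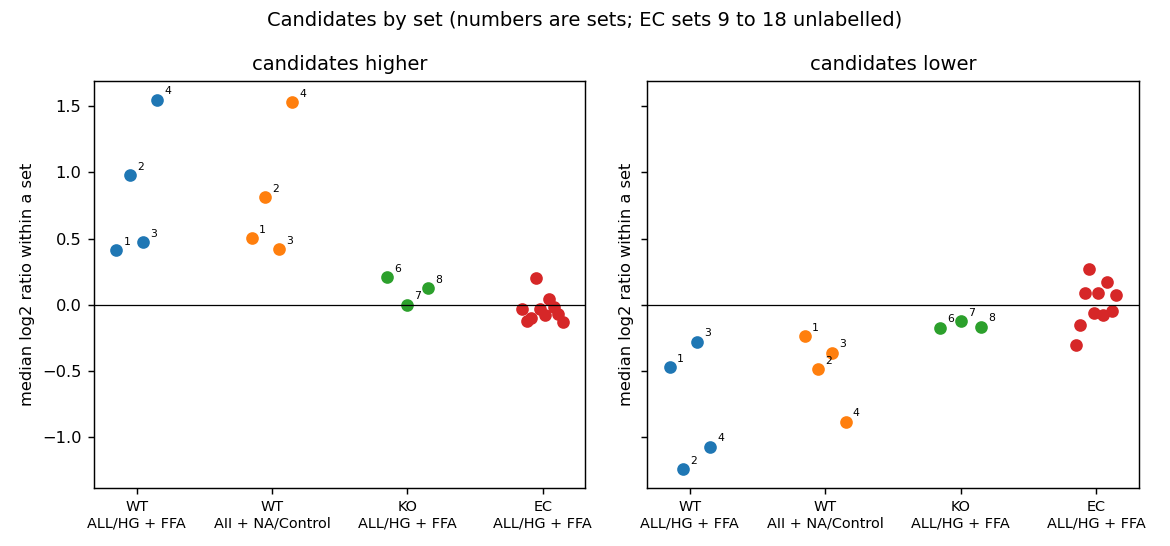
Median log2 ratio within each set over the higher (left) and the lower candidates (right) in 4 comparisons. The candidates were chosen on the first comparison, so its values are a description. The second comparison, AII + NA against Control, lies on the same side in all 4 sets, with set 4 furthest from 0. For the higher candidates the KO VSMC and EC sets lie between -0.13 and 0.21. For the lower candidates the EC sets lie on both sides of 0, from -0.30 to 0.27.

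In KO VSMC, ALL against HG + FFA could be compared in 3 sets (6 to 8), because the ALL library of set 5 was not analysed here. Egfr was at 0.521 to 39.4 FPM in the KO VSMC libraries and at 215 to 473 FPM in WT VSMC. There were 0 DEG in KO VSMC, with an FDR under 0.05 for 0 genes in edgeR and in DESeq2 and an unadjusted edgeR p under 0.05 for 510 of 17538 (2.91%). Of the 89 higher candidates 65 were also higher in KO VSMC, against 49.3% of all genes, and 5 of them at an unadjusted p under 0.05, where 1.07% of all genes were. Their median log2FC was 0.10. Of the 19 lower candidates 14 were lower, against 50.7% of all genes, and 0 of them at an unadjusted p under 0.05 in edgeR, where 1.84% of all genes were, with a median of -0.21. Agtr1b had 0.48 ± 0.26 (SE), Agtr1a 0.61 ± 0.40 (SE), Agtr2 -0.23 ± 0.39 (SE), Acta2 0.14 ± 0.16 (SE) and Atp10a -0.01 ± 0.18 (SE). Mylk had -0.52 ± 0.20 (SE, unadjusted edgeR p = 0.0184), opposite to WT VSMC. The lower values of imprinted growth genes were not particular to WT VSMC. In KO VSMC, 3 of the 10 were lower at an unadjusted edgeR p under 0.05, against 1.84% of all genes. The median log2FC of that list was -0.34 in KO VSMC and -0.25 in WT VSMC.

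The difference between genotypes was tested directly in a joint model. No gene had an edgeR FDR under 0.05, the smallest was 0.556, and 1008 of 18339 genes (5.50%) had an unadjusted p under 0.05. DESeq2 called 3 (0.0164%). The genes at the smallest FDR included Map3k10 (difference 0.65 ± 0.13, SE) and Mylk (1.39 ± 0.29, SE). For Agtr1a the difference was 0.37 ± 0.40 (SE) and for Agtr1b 0.86 ± 0.33 (SE, FDR = 0.862). Genes chosen for a large value in WT VSMC tend to show a difference of this sign, and the WT and KO cells came from different animals.

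In EC, 0 of 17148 genes had an FDR under 0.05 in edgeR or DESeq2 and 881 (5.14%) had an unadjusted edgeR p under 0.05, over 10 sets from 9 animals. Of the 86 higher candidates tested there, 30 were higher, against 45.8% of all genes, and of 18 lower ones 8 were lower, against 54.2%. At an unadjusted edgeR p under 0.05, 0 of the 86 were higher and 4 lower, where 2.30% and 2.84% of all genes were, and 0 of the 18 were lower. The median log2FC were -0.04 and 0.03. Acta2 had 0.00 ± 0.15 (SE) and Atp10a -0.28 ± 0.12 (SE), while Agtr1b and Agtr2 did not pass the filter on low counts in EC. VSMC and EC carry different batch labels, so that cell type and batch cannot be told apart.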

How the data were processed

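Poly(A) RNA was sequenced as paired-end reads. The authors aligned reads with HISAT2 2.1.0 to mm39, assigned them to exons with featureCounts, including reads with several alignments, and deposited raw counts per gene. Strand and pair settings are not given in the sources used here. Identifiers were matched to GENCODE (GRCm39), and 0.0236% of WT VSMC counts had none. Mitochondrial genes held no counts.

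Genes were filtered with filterByExpr and tested in R 4.3.3 with edgeR 4.0.16 (TMM, quasi-likelihood) on the 16 WT VSMC libraries, with condition and set as terms, and in DESeq2 1.42.0 with the same model. The FDR is the Benjamini-Hochberg value across every tested gene. DEG and candidates were protein-coding or lncRNA genes. Ratios of single libraries used a pseudocount of 0.1 FPM. The set numbers pair the libraries, since each set is 1 animal. Deviations from the group mean correlated by 0.661 to 0.928 within sets and by -0.574 to 0.324 between them. No 2 libraries were duplicates. KO VSMC and EC were fitted separately, and jointly for the difference between genotypes.

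Named genes were all DEG and edgeR calls, up to 12 higher and 12 lower candidates with the smallest p, up to 4 members per list and the receptor and contractile marker genes. Cnn2, Myom1 and Vcl (promoter) and further list members were named after their values were seen. The comparison and the gene lists were chosen with earlier results of these data known. The model was also run on simulated counts, with changes larger than most reported here planted only in genes with high counts. That run does not cover small changes or genes with low counts. Some genes that this rule names are not reported here.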

Additional observations from a re-analysis of the deposited data

Results flagged for a closer look

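For each of 58 named genes and 35 gene lists, the log2 ratios of ALL to HG + FFA in the 4 WT VSMC sets were examined for a set far from the other 3. Chance alone flags about 1 group in 20, and 7 of the 93 were found. Set 4 was high for Agtr1a (1.48, others 0.69 to 0.79), Myh10 (1.54, others 0.64 to 0.79) and Adrb3 (0.77, others -0.03 to 0.07). For Smarca1, set 3 was low (-1.21, others -0.54 to -0.42). Set 2 lay apart in the median of 3 lists, with ERK feedback at -0.48 (others -0.11 to -0.07), glucose transport and glycolysis at 0.32 (others -0.04 to 0.02) and ER stress and integrated stress response at 0.26 (others -0.07 to -0.03). Of the 56 named genes also tested in EC, none moved one way in all WT VSMC sets and the opposite way in all EC sets. As this rule needed the same sign in all 10 EC sets, it could hardly be met, and nothing is concluded from it.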

How the results depend on the processing

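The number of DEG (5) was 66 with DESeq2 alone, 3 with a log2FC threshold of 1, 61 without the filter on low counts, 0 with only the 2 groups compared and 0 to 11 without single sets. The edgeR count (7) was 224 with DESeq2, 653 without the filter, 0 with only the 2 groups compared and 0 to 12 without single sets. The candidate count (108) was 47 to 204 without single sets. Departures from additivity (0) were 70 and genotype differences (0) were 104 without the filter, and DESeq2 gave 3 genotype differences. Without the replicate block, DEG and edgeR calls were 0 and candidates 30, so the calls depended on the pairing by animal. The cause of the other differences was not tested. The remaining alternatives left these counts within 1.5 times, and the 0 DEG of KO VSMC and EC stayed at 0 in all of theirs. The log2FC of 58 named genes kept its sign in all 522 values under 9 alternatives. Many of these genes had been chosen for a small p in the same libraries, so this is no independent support. At these depths low receptors such as Adrb1 rest on few reads.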
